A study of Mus musculus with 23 samples.

Results

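Collagen genes were followed in scrapings of the mouse small intestine. Members were all genes whose name on the array is Col, a number, the letter a and a number, which gave 43 genes of the 34797 on the array. They were read by 68 probes on 77 spots, because the Col4a1 probe is spotted 10 times. By the kind of assembly their chains form, 11 were fibrillar, 8 were of basement membranes and 24 were of other types. The samples came from 23 adult male C57BL/6J mice, with 1 array per mouse. After 3 weeks on normal fat, 12 mice were kept for 12 weeks on a diet high in fat (HF). The remaining 11 got that diet with quercetin added at 0.33% (w/w) over the same 12 weeks (HF-Q). Both groups thus carried the fat load, no group stayed on normal fat, and all mice were fasted before tissue was taken. Quercetin is a plant flavonol, and the series asked whether feeding it leaves a trace of genotoxicity in gene expression. A quercetin-fed mouse with an abscess had been left out of the 24 mice by the authors.

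Collagens are secreted proteins in which alpha chains wind into a helix. Fibrillar collagens (types I, II, III, V, XI, XXIV and XXVII) pack into the fibres of connective tissue, type IV forms the network of basement membranes, and types XV and XVIII are basement membrane proteoglycans. In the gut wall the fibrillar types are made mainly by fibroblasts and smooth muscle cells of the lamina propria, submucosa and muscle coat, and basement membrane types also surround epithelium, vessels and muscle cells. A scraping takes mucosa with a varying amount of the tissue below it. In whole-tissue RNA of this kind, fewer cells of a type and less RNA per cell cannot be told apart.

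Each value below is a log2 ratio of a mouse's Cy5 signal to a Cy3 pool of all mice read on the same array, so 0 means the level of the pool and 1 means a doubling. The dyes were never swapped, so a fixed dye effect enters every ratio alike and drops out of differences between mice. A probe counted as detected when the scanner software called its Cy5 signal well above background, and a gene was tested when the arrays of HF or those of HF-Q had a probe of it detected on 50% or more of them. All 12 enterocyte markers, among them Alpi and Vil1, were detected on all 23 arrays. A protocol field names liver, against the small intestine of the other labels. The array count limits the precision of what follows, and whether the probes lie in coding or untranslated exons was not analysed here. The arrays lay on 3 slides that each held both diets (4 and 4, 4 and 3, 4 and 4 HF and HF-Q arrays).

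The chains of types I and III, the main type IV chains and Col6a1 to Col6a4 were detected in every mouse, whereas 10 collagen genes were not detected in any. Of the 43 genes, 27 were tested (62.8%, against 61.7% of all genes on the array), 20 were detected on all 23 arrays, 6 on some arrays but too few to be tested, and 10 on 0 arrays. The basement membrane class had 7 of 8 genes tested, the other types 15 of 24 and the fibrillar class 5 of 11. Of the member probes, 0 were saturated on any array.

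Among fibrillar genes, Col1a1 and Col1a2, the chains of type I collagen, Col3a1, the single chain of type III, and Col5a1, a regulator of fibre width, were detected on all 23 arrays. Col5a3 was detected on 10 HF and 7 HF-Q arrays. Col2a1 and Col11a1, cartilage collagens, were detected on 0 arrays, as were Col27a1 and Col5a2. The Col5a2 result stands against Col5a1, its partner in type V collagen, and rests on 1 probe. Col11a2 was detected on 3 arrays and Col24a1 on 1.

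All 6 type IV genes passed, in 3 steps of detection. Col4a1 and Col4a2, the chains of the network found in most basement membranes, and Col4a6 were detected on all 23 arrays. Col4a4 was detected on 8 HF and 8 HF-Q arrays. Col4a5 was detected on 10 HF and 4 HF-Q arrays and Col4a3 on 7 and 2, so these genes were tested only because of their HF arrays. Col18a1, the source of the fragment endostatin, was detected on all 23 arrays. Col15a1 was detected on 2 arrays with its best of 3 probes and was the only basement membrane member not tested.

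Among the other types, Col6a1, Col6a2, Col6a3 and Col6a4, chains of the type VI microfibrils around cells, Col7a1, the anchoring fibril collagen, and the fibre-associated Col14a1 and Col16a1 were detected on all 23 arrays. Col12a1, also fibre-associated, was detected on 12 HF and 7 HF-Q arrays. Col23a1, a transmembrane collagen, was detected on 12 HF and 10 HF-Q arrays. Col9a1 was detected on 6 HF and 4 HF-Q arrays and was tested only because of its HF arrays. Col10a1, of hypertrophic cartilage, Col17a1, of skin hemidesmosomes, Col6a5, Col8a1, Col9a3 and Col28a1 were detected on 0 arrays, and Col8a2, Col13a1 and Col25a1 each on 1. Several tested genes were detected on fewer arrays in the pool than in the mice. The Col19a1 probe used was detected on all 23 arrays in Cy5 and on 0 in the Cy3 pool, the Col6a6 probe on 23 and 1, the Col22a1 probe on 23 and 9, and the Col4a3 probe on 9 and 0. Col5a3 (17 and 3), Col4a5 (14 and 4) and Col9a2 (23 and 12) were of the same kind. Ratios of Col19a1 (HF mean 0.64 ± 0.25 SD, n = 12) and Col6a6 (HF mean 0.57 ± 0.17 SD, n = 12) lay above 0 in both diets, over a pool signal that was not well above background on most arrays.

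**Figure D1:**
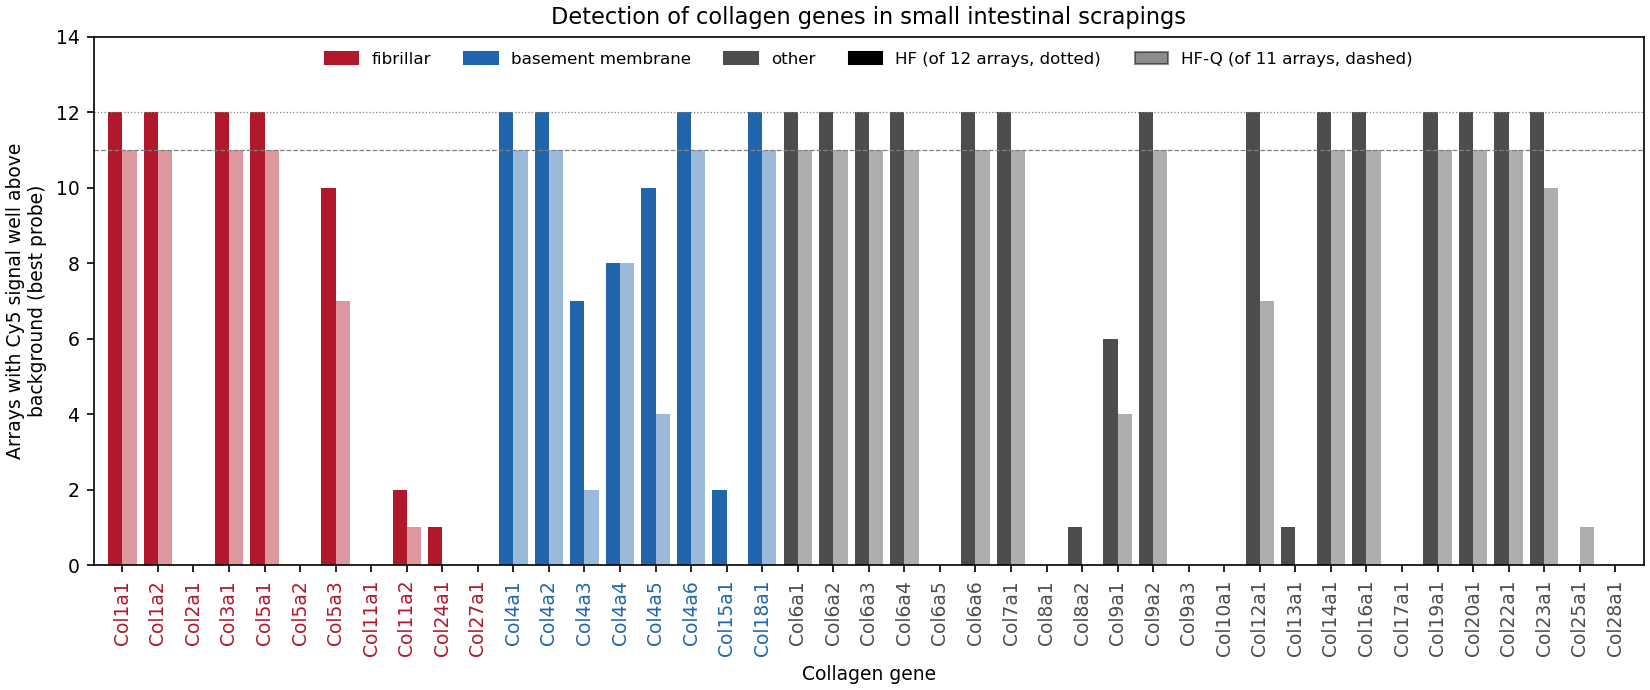
Number of arrays on which each of the 43 collagen genes was detected with its best probe, as solid bars for HF (of 12) and pale bars for HF-Q (of 11), coloured by class. Detection was on all 23 arrays for 20 genes and on 0 arrays for 10.

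With quercetin, most tested collagens had lower mean ratios than with the high-fat diet alone, by amounts that did not pass the test. The HF-Q mean was below the HF mean for 22 of 27 collagens and above it for 5. Col4a5 and Col9a1, which were lower, and Col4a3, which was higher, were tested only because of their HF arrays. For such genes the filter itself favours a lower HF-Q mean. Among the 20 collagens detected on all 23 arrays, 16 were lower and 4 higher, with a median of -0.25. The median log2 fold change, HF-Q over HF, was -0.21 over the 27 collagens and -0.0039 over all 21471 genes tested, of which 52.0% were lower. It was -0.32 for the 5 fibrillar genes, all of them lower, -0.073 for the 7 basement membrane genes and -0.21 for the 15 others. In limma's moderated test with Benjamini-Hochberg adjustment over all genes, 0 of 27 collagens were called at an adjusted p under 0.05 (background 0%), and the smallest adjusted p of any gene was 0.951. At an unadjusted p under 0.05, 5 collagens were lower with quercetin and 0 higher, where 2.42% of all genes were lower and 2.11% higher. The median over the 27 was -0.34 when the log10 ratios deposited by the authors were turned to log2 in place of the ratios computed here.

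Type I collagen, the main fibre protein of connective tissue, gave the largest differences of the family. Col1a1, read at chr11:94813115-94813174 (mouse build mm9), ran from -0.17 through a median of 0.15 to 0.49 over the HF mice and from -1.21 through -0.085 to 0.45 over the HF-Q mice. The ranges overlap, with 4 HF-Q mice below every HF mouse and 0 above every HF mouse. The Col1a1 log2 fold change was -0.37 ± 0.17 (SE), with unadjusted p = 0.0366 and limma adjusted p = 0.951. Col1a2 ran from -0.14 through 0.12 to 0.60 in HF and from -1.18 through -0.069 to 0.42 in HF-Q, and differed by -0.37 ± 0.16 (SE; unadjusted p = 0.0281, limma adjusted p = 0.951).

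Col3a1, the type III collagen of distensible walls, read at chr1:45405589-45405648 (mm9), ran from -0.41 through 0.14 to 0.52 in HF and from -1.28 through -0.25 to 0.49 in HF-Q. Its log2 fold change was -0.32 ± 0.19 (SE), and 6 of the 11 quercetin-fed mice were under the median of the HF mice. Col5a1 ran from -0.19 through 0.12 to 0.44 in HF and from -0.55 through -0.16 to 0.42 in HF-Q. It had the smallest unadjusted p of the family (0.0211, limma adjusted p = 0.951), at -0.25 ± 0.10 (SE), with 9 of the 11 quercetin-fed mice under the HF median of that gene. Col5a3 differed by -0.16 ± 0.077 (SE).

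The basement membrane genes split by chain. Col4a1, read at chr8:11199009-11199068 (mm9), ran from -0.26 through 0.092 to 0.57 in HF and from -1.13 through -0.20 to 0.65 in HF-Q. The HF-Q mice enclosed the HF range, with 5 of them below every HF mouse and 2 above every HF mouse, and the SD was 0.63 in HF-Q against 0.25 in HF. The 10 spots of the Col4a1 probe on one array differed by a median SD of 0.089, against an SD of 0.48 between the 23 mice. The log2 fold changes were -0.28 ± 0.18 (SE) for Col4a1, -0.27 ± 0.15 for Col4a2 and -0.25 ± 0.15 for Col18a1. The chains of the restricted networks lay near 0, at -0.073 for Col4a5, -0.054 for Col4a4, 0.018 for Col4a3 and 0.082 for Col4a6, each with a 95% interval that spans 0. The second Col4a6 probe differed by -0.25, but it was detected on 8 HF and 1 HF-Q arrays and passed only through HF.

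Among the other types, the type VI chains gave similar differences, of -0.31 ± 0.15 (SE) for Col6a1, -0.27 ± 0.14 for Col6a2 and -0.31 ± 0.17 for Col6a3. Col6a3 ran from -0.39 through 0.047 to 0.55 in HF and from -1.19 through -0.27 to 0.39 in HF-Q. Col7a1, which ties the epithelial basement membrane to the tissue below, ran from -0.42 through -0.012 to 0.57 in HF and from -0.62 through -0.24 to 0.36 in HF-Q, a difference of -0.23 ± 0.11 (SE; unadjusted p = 0.0478, limma adjusted p = 0.951). Col6a1 and Col7a1 were the only other types with an unadjusted p under 0.05. Col19a1, Col22a1 and Col6a6 were higher with quercetin by 0.037, 0.038 and 0.022. Some differences depended on the probe. The second passed probe gave -0.074 against -0.26 for Col14a1, 0.0080 against -0.21 for Col23a1 and 0.048 against -0.034 for Col20a1. For Col16a1 it gave -0.20 against -0.21, but this second probe was detected on 9 HF and 5 HF-Q arrays and passed only through HF. With the mean of all kept probes the median of the other types was -0.12.

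**Figure D2:**
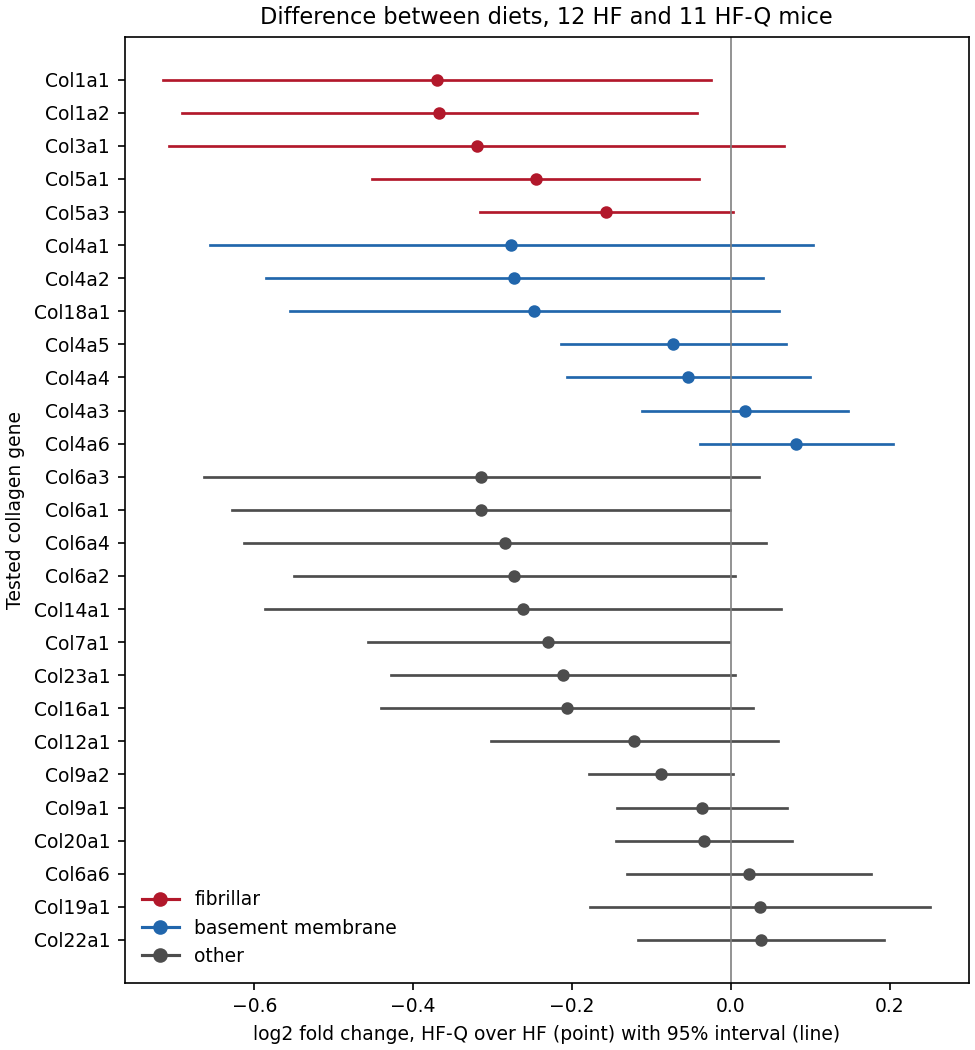
Log2 fold change, HF-Q over HF, of the 27 tested collagen genes (points) with 95% intervals from the limma fit (lines), coloured by class. Points lie left of 0 for 22 genes, and the intervals of 5 of them leave out 0.

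The low HF-Q values came largely from the same animals. In 13 of the 27 tested collagens the 3 lowest values of all 23 mice were those of HF-Q mice 1, 2 and 3, which for Col3a1 were -0.59, -1.12 and -1.28. How often these 3 mice were lowest over all genes tested was not counted. The same mice had the lowest smooth muscle scores, a score being the mean log2 ratio of the tested markers of a cell type. The smooth muscle score, over 12 markers of contractile cells such as Myh11 and Actg2, was -1.02, -1.18 and -0.82 in those mice and ran up to 1.03 in another. Of these markers Mylk went against the score that holds it (r = -0.21) and Pgm5 had r = 0.60. The others had r from 0.92 to 0.99. All 12 smooth muscle markers and all 9 fibroblast markers had lower means in HF-Q, and the scores were lower by 0.23 (HF range -0.68 to 1.03, HF-Q range -1.18 to 0.78) and by 0.18 (HF range -0.095 to 0.39, HF-Q range -0.48 to 0.29). The 5 mural, 8 endothelial and 12 pancreatic acinar markers tested also all had lower means in HF-Q, with scores lower by 0.22, 0.14 and 0.60, as did 9 of 12 enterocyte and 4 of 5 macrophage markers, whose scores were lower by 0.085 and 0.074. The acinar score spread widely in both diets (HF range -3.42 to 1.76, HF-Q range -3.53 to 2.14). The part of these cell types in the diet difference was not tested. Of the smooth muscle list only Lmod1, and of the fibroblast list Dpt, Pi16 and Clec3b, were not tested. The probe used for Mfap5 of the fibroblast list, detected on 11 HF and 5 HF-Q arrays, passed only through HF. With both scores added as covariates, 10 collagens were lower and 17 higher with quercetin, the median over the 27 was 0.023, and Col1a1 stood at -0.054 and Col3a1 at 0.094. Col7a1 stood at -0.27 ± 0.13 (SE), against -0.23 without them. In limma's test, 1 collagen was lower at an unadjusted p under 0.05 in that fit, where 5.87% of all genes were lower. With the smooth muscle score alone as a covariate 22 were lower, and the medians of the classes were smaller in size than without it. The median over the 27 was -0.13, that of the fibrillar genes -0.18 and Col1a1 -0.23.

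The mouse numbers in the labels also sorted these scores, a split looked at after seeing the data. The 8 mice numbered 1 to 4, of both diets, held the 8 lowest smooth muscle scores, all at or below -0.50, and the 15 others were at or above -0.42. The labels do not say what the numbers stand for. Within the mice numbered 1 to 4, 15 collagens were lower with quercetin at an unadjusted p under 0.05 (3.61% of all genes were lower). There the median over the 27 was -0.31 and Col1a1 differed by -0.83. Within the mice numbered 5 and up, 2 were lower at that threshold (2.38% of all genes) and 20 of the 27 had a lower mean, but the median was -0.088 and Col1a1 differed by -0.095. By slide, the median over the 27 collagens was -0.29, -0.30 and -0.037 on slides 1, 2 and 3, and -0.21 with slide as a block. The part of the mouse numbers in the diet difference was not tested.

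Genes that build, bind or break down collagen also had mostly lower means with quercetin. Of 88 names listed for the pathway, 68 were tested, 54 had a lower and 14 a higher mean in HF-Q, and 0 were called. All 9 matrix partners, such as Sparc and Dcn, and 13 of 14 basement membrane partners, the laminins, nidogens and heparan sulfate proteoglycans, had lower means, with medians of -0.15 and -0.18. For the breakdown group, made of metalloproteinases, their inhibitors and cathepsin K, 8 of 10 were lower, and for crosslinking enzymes 3 of 4. Of the genes for synthesis and modification 8 were lower and 6 higher, and of the receptors 6 and 3. The probes used for Loxl1 (8 HF and 4 HF-Q arrays), Loxl3 (8 and 3) and Fmod (6 and 1), all lower, passed only through HF. That of P4ha1 (6 and 4), which was higher, did too. For such genes the filter favours a lower HF-Q mean. Leprel4, a partner of lysyl hydroxylase in the endoplasmic reticulum, had the smallest unadjusted p of the list (0.000168, limma adjusted p = 0.951), at -0.45 ± 0.10 (SE). It was followed by Ctsk, a collagen-degrading cathepsin, at -0.22 ± 0.083 and Fkbp10, a collagen chaperone, at -0.32 ± 0.12.

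Across the 23 mice, many interstitial collagens varied with smooth muscle markers. Each gene was regressed on the smooth muscle score over all mice, with limma's adjusted p over all genes. A positive slope passed the test for 16 of 27 collagens (15.2% of all genes) and a negative one for 1, Col4a6 (8.32% of all genes). The positive calls were 4 of 5 fibrillar genes (Col1a1, Col1a2, Col3a1 and Col5a1), 4 of 7 basement membrane genes (Col4a1, Col4a2, Col4a5 and Col18a1) and 8 of 15 others (Col6a1 to Col6a4, Col12a1, Col14a1, Col16a1 and Col23a1). The median Pearson r was 0.78 for fibrillar, 0.56 for basement membrane and 0.67 for other genes, against -0.040 over all genes tested. All 16 had lower means in HF-Q. These slopes describe variation over the mice of both diets together, and they were computed for 27 members in 1 fit over all genes. Within HF-Q alone 15 collagens were called positive (6.54% of all genes), and within HF alone 0 (1.06%).

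Col3a1 had the highest r of the family. It stood at 0.84 with Spearman's rho of 0.88 (permutation p = 1e-05 for each, the smallest that 100000 permutations can give), and its slope was 0.72 ± 0.097 (SE) log2 units per unit of score (limma adjusted p = 1.82e-05). Without the 2 mice farthest from the median score, r was 0.88, and it was 0.88, 0.98 and 0.81 on slides 1, 2 and 3. Col1a1 gave r = 0.82, rho = 0.90 and a slope of 0.65 ± 0.093. Col1a2 gave r = 0.78 and a slope of 0.58 ± 0.097, and Col5a1 r = 0.69 and a slope of 0.33 ± 0.071. Col5a3 had r = 0.44 (permutation p = 0.0338) and did not pass over all genes (limma adjusted p = 0.0892).

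In basement membranes, Col4a1 gave r = 0.83, rho = 0.87 and a slope of 0.69 ± 0.096, and r was 0.87 without the 2 farthest mice. Col4a2 followed with r = 0.80 and a slope of 0.56 ± 0.086, and Col4a5 with r = 0.56 and a slope of 0.16 ± 0.052. Col4a4 (r = -0.18) and Col4a3 (r = 0.36) did not pass. In the other types, Col12a1 gave r = 0.83 and a slope of 0.32 ± 0.047, and Col6a3 r = 0.80 and a slope of 0.62 ± 0.097, followed by Col6a1 at r = 0.76 and Col6a2 at r = 0.72. Col7a1 stood apart from these, with r = 0.17, although its SD over the mice, 0.30, was above that of the called genes Col23a1 (0.28) and Col4a5 (0.17). Col19a1, Col20a1, Col9a1, Col9a2 and Col6a6 had r between -0.22 and 0.13.

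Col4a6 ran against its class. It was lowest, at -0.17, in a mouse with a positive muscle score and highest, at 0.40, in HF-Q mouse 3, whose muscle score was -0.82. Its r was -0.71 and rho -0.76 (permutation p = 0.00017 and 5e-05), with a slope of -0.17 ± 0.040 (limma adjusted p = 0.00335), and r was -0.81, -0.84 and -0.69 on the 3 slides. Within the mice numbered 1 to 4 r was 0.046, and within those numbered 5 and up it was -0.53. The result rests on 1 probe, at chrX:137601433-137601491 (mm9), and on the normalization. The second Col4a6 probe, detected on 9 arrays, gave r = 0.29. With the mean of both probes the slope was -0.043 (limma adjusted p = 0.441), and with median centring of each array in place of loess it was -0.070 (limma adjusted p = 0.336). A second probe passed for 5 other genes. Its r was 0.68 for Col18a1, 0.67 for Col23a1, 0.40 for Col16a1, 0.38 for Col14a1 and -0.043 for Col20a1, so the Col14a1 and Col16a1 values also depend on the probe.

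**Figure D3:**
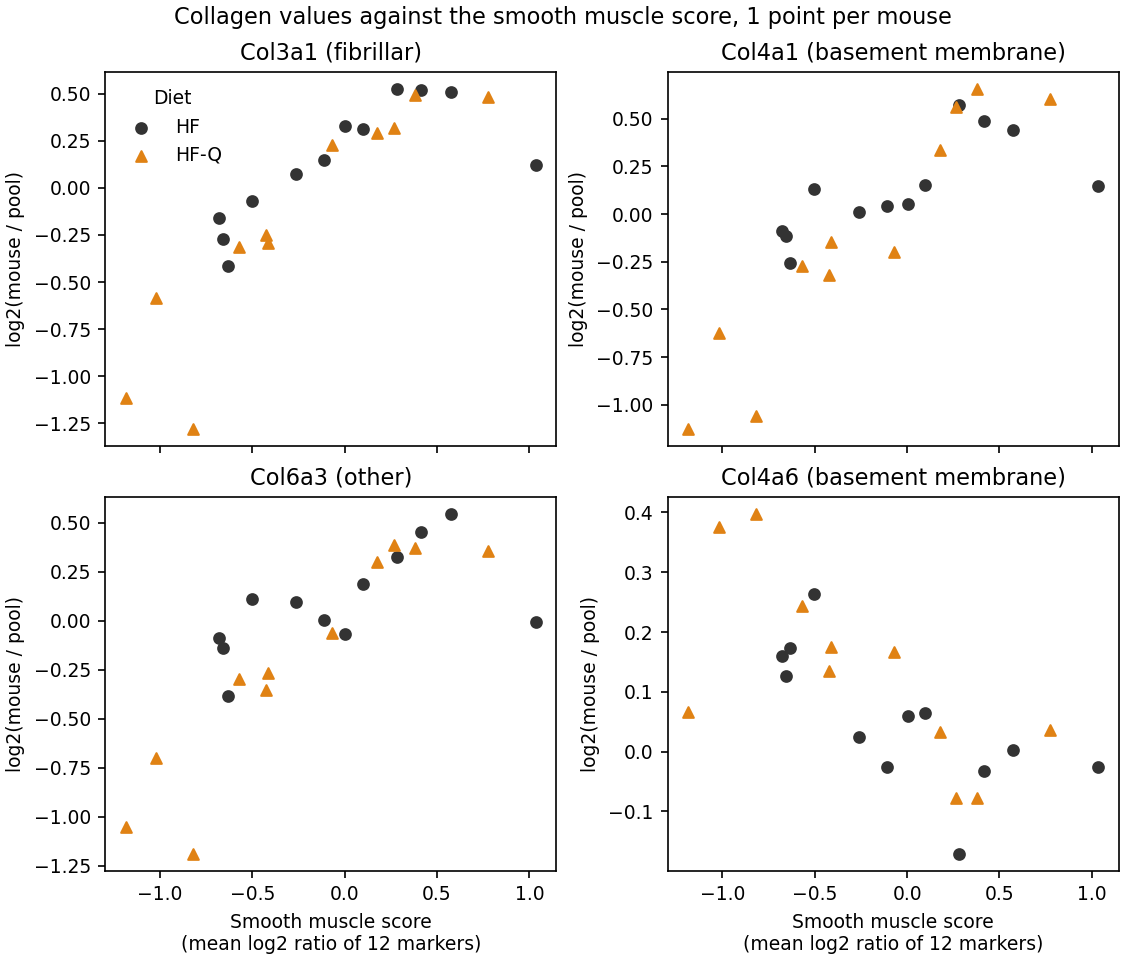
Log2 ratio to the pool of Col3a1, Col4a1, Col6a3 and Col4a6 (vertical axes) against the smooth muscle score (horizontal axes, mean log2 ratio of 12 markers), with 1 point per mouse, circles for HF and triangles for HF-Q. The first 3 genes climb with the score (r of 0.84, 0.83 and 0.80) and Col4a6 descends (r = -0.71).

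How many genes of the array went with the score in each direction differed between versions of the values. Of all calls, 64.7% were positive (3271 positive and 1787 negative), against 95.8% with median centring (5325 and 235), 65.4% with quantile-normalized Cy5 alone (2717 and 1435) and 36.4% with the authors' deposited log2 values (2072 and 3625), which follow Cy5 alone and cover fewer genes. The positive collagens numbered 16 with median centring and 15 of 25 tested with the deposited log2 values. Within a single diet or slide the class means still went with the score. The mean of the fibrillar genes had r = 0.72 within HF and 0.93 within HF-Q, the basement membrane mean 0.57 and 0.90, and the mean of the other types 0.56 and 0.93. Over the 3 slides these r lay between 0.69 and 0.92. Within the 15 mice numbered 5 and up they were 0.72, 0.62 and 0.64, and 1 collagen passed over all genes there (0.363% of all genes were positive), and within HF alone 0 did (1.06% of all genes).

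The slope on the score was steeper in HF-Q than in HF for all 16 positive collagens, but the difference in slope was called for 0 of 27 (background 0%, limma adjusted p = 1.00 for Col4a1). At an unadjusted p under 0.05 it differed for 14 of 27 collagens, 13 of them steeper in HF-Q, where 3.41% of all genes differed. Col4a1 showed it most, with a slope of 0.33 in HF and 0.96 in HF-Q, a difference of 0.63 ± 0.15 (SE). The HF mouse with the highest score (1.03) had a Col4a1 ratio of 0.15, and the HF-Q mice at the low end had -1.13 and -1.06.

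**Figure D4:**
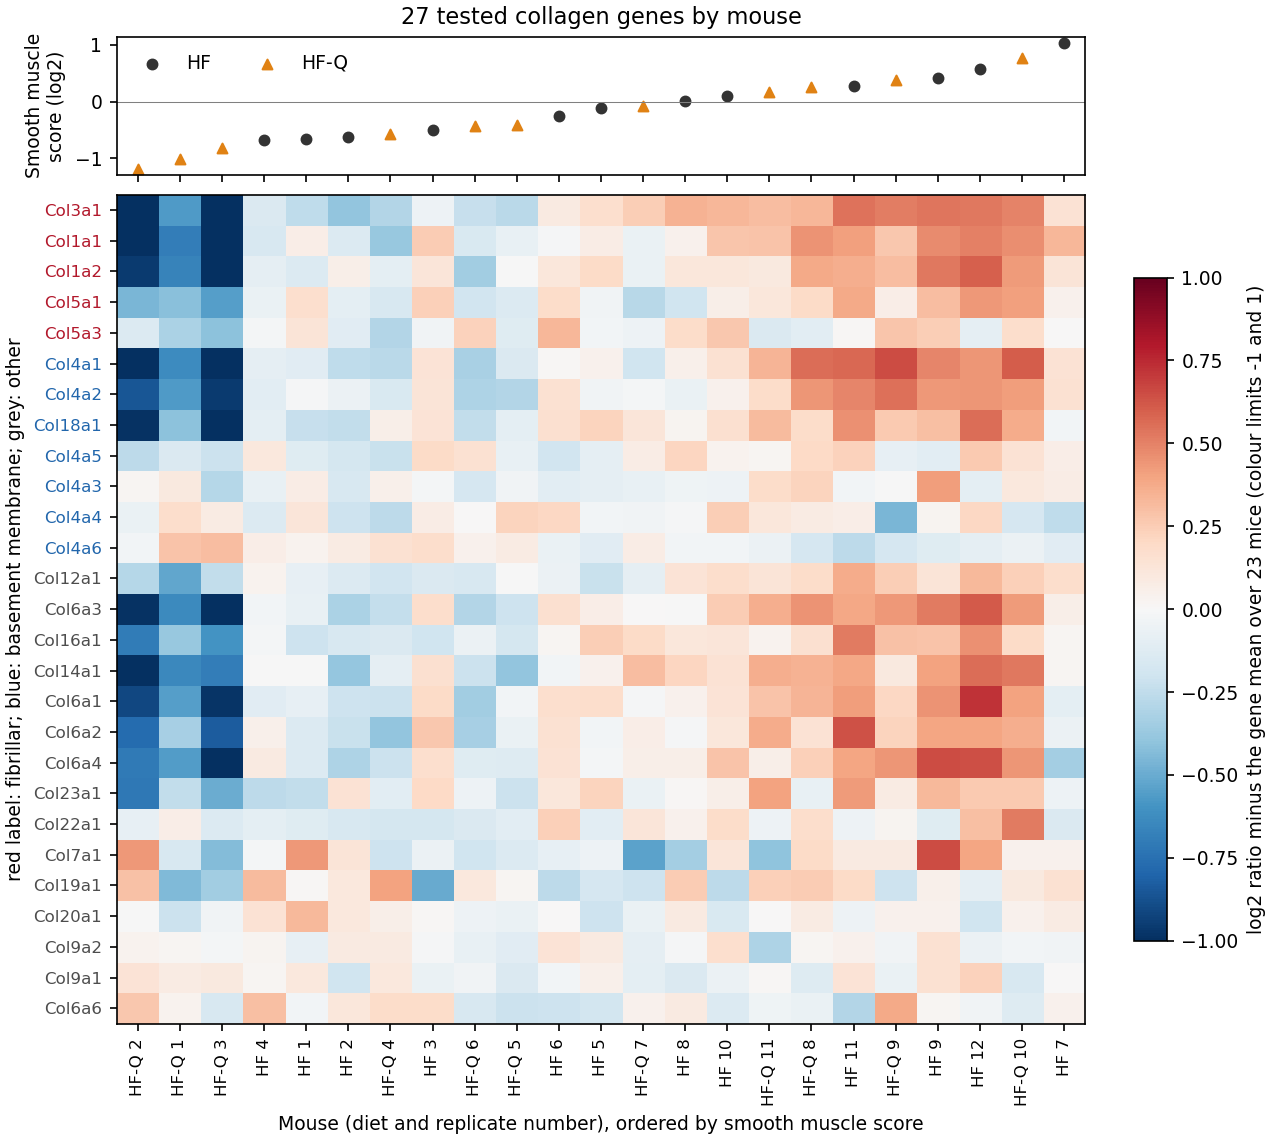
Log2 ratios of the 27 tested collagen genes in each of the 23 mice, after subtraction of each gene's mean, as colours cut at -1 and 1, with mice ordered by smooth muscle score (upper panel, circles HF, triangles HF-Q). HF-Q mice 2, 1 and 3 at the left hold the 3 lowest values for 13 genes, among them Col1a1, Col3a1, Col4a1, Col4a2, Col6a1 and Col6a3, and the rows of Col4a6, Col7a1, Col9a1 and Col6a6 do not share that pattern.

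Most collagens had a higher r with fibroblast markers than with muscle markers, and over the mice these marker scores went together (r = 0.88). On the fibroblast score, 17 of 27 collagens had a positive slope (14.9% of all genes) and 1, Col4a6, a negative one (7.57% of all genes), all 5 fibrillar genes among the positive. The class medians of r were 0.92 for fibrillar, 0.65 for basement membrane and 0.85 for other genes. Col3a1 reached r = 0.96 and rho = 0.94 (permutation p = 1e-05 for each), and r was 0.95 without the 2 mice farthest from the median fibroblast score. Col16a1 reached r = 0.95, Col1a1 0.92 and Col4a1 0.92. With both scores in 1 fit, the fibroblast coefficient was called for 13 of 27 collagens (0.866% of all genes positive) and the muscle coefficient for 0 (0.219% of all genes). For Col3a1 the coefficients were 2.16 ± 0.28 (SE) on the fibroblast score and -0.043 ± 0.11 on the muscle score, and for Col1a1 they were 1.76 ± 0.35 and 0.028 ± 0.14. Dcn, Lum, Fbln1 and Efemp1 of the fibroblast list encode matrix proteins themselves, and without them 13 collagens were still called. Within the mice numbered 5 and up, 0 were.

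Other cell types of the gut wall went the same way to differing degrees. Over the fibrillar genes the median r was 0.88 with mural cell markers, 0.87 with endothelial markers, 0.81 with macrophage markers and 0.60 with glial and neuronal markers. It was -0.25 with enterocyte markers, -0.46 with adipocyte markers and -0.044 with pancreatic acinar markers, whose score ran from -3.53 to 2.14. The scores of these lists move together over the mice, since mural, endothelial and macrophage scores had r of 0.94, 0.76 and 0.73 with the smooth muscle score and the enterocyte score -0.48. Single markers departed from their lists. With the smooth muscle score, Fbln1 of the fibroblast list had r = -0.36, Kdr of the endothelial list -0.44 and Cdx1 of the enterocyte list 0.73. Which of these cells the collagen transcripts came from was not tested.

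**Figure D5:**
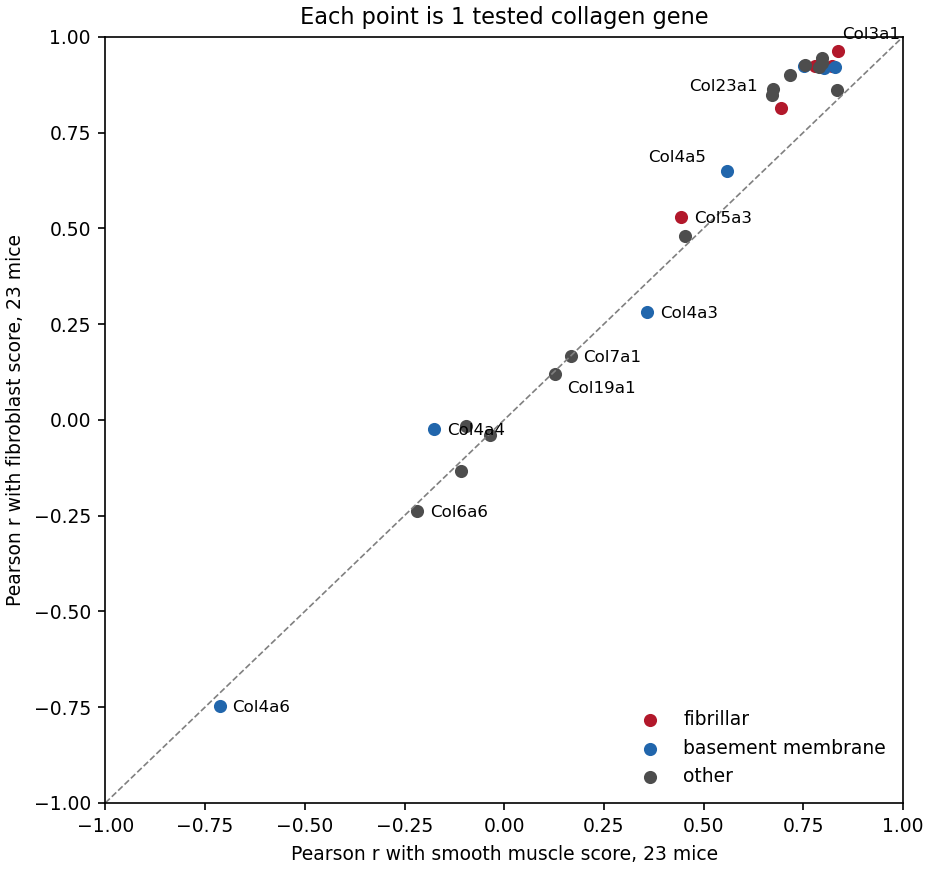
Pearson r over 23 mice of each of the 27 tested collagen genes with the smooth muscle score (horizontal) and with the fibroblast score (vertical), coloured by class, with the dashed line marking equal r. Most genes with a high r lie above the line, such as Col3a1 (0.84 and 0.96), and Col4a6 is alone at the lower left (-0.71 and -0.75).

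Among the pathway genes, a positive slope on the smooth muscle score was called for 35 of 68 (15.2% of all genes) and a negative one for 3 (8.32% of all genes). Matrix partners had 7 of 9 positive (median r = 0.80), basement membrane partners 9 of 14 (0.71) and the breakdown group 8 of 10 (0.65), whereas synthesis enzymes had 4 of 14 and receptors 2 of 9, nearer the share over all genes. The receptors called were those of mesenchymal cells, Ddr2, a collagen receptor kinase (r = 0.91), and Itga11, a collagen-binding integrin chain (r = 0.84).

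Chains that assemble into the same molecule varied together in the abundant types, as did many collagens that share no molecule. Over the 23 mice, r was 0.96 for Col1a1 with Col1a2, 0.98 for Col4a1 with Col4a2, 0.94 for Col6a1 with Col6a2 and 0.98 for Col6a1 with Col6a3 (permutation p = 1e-05 each, 1.5e-05 after Benjamini-Hochberg adjustment over 6 pairs). Spearman's rho for these pairs lay between 0.93 and 0.96. Without the 2 mice farthest from the median of the first chain, r was 0.90, 0.96, 0.89 and 0.95. Such values were not particular to partner chains: pairs of a fibrillar and a basement membrane gene reached r = 0.96 (median 0.52 over 35 pairs), pairs of a fibrillar and another type 0.97 (median 0.49 over 75), and the median over the 10 fibrillar pairs was 0.83. The restricted type IV chains did not vary together. Col4a3 with Col4a4 had r = -0.023 (permutation p = 0.916) and Col4a5 with Col4a6 had r = -0.38 (permutation p = 0.0707, adjusted 0.0848). Col4a3, Col4a4 and Col4a5 are the dimmer genes of the group, detected on 9, 16 and 14 arrays, and Col4a6 on all 23. Col5a1 with Col5a2 and Col8a1 with Col8a2 could not be compared, since a partner was not tested.

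The type IV genes lie in head-to-head pairs that are read in opposite directions. Promoter windows are shown for the pair that varied together and for 1 pair that did not, Col4a5 with Col4a6. Those of Col4a3 and Col4a4, which did not vary together either, are not shown. Whether the windows bear on how the chains varied was not tested. Windows run from 250 bases before to 50 after the gene start in RefSeq (mouse assembly GRCm38.p6), each 300 bases and written 5′ to 3′ along its gene, and 35 of the 43 members had one. Col4a1 (chr8:11312777-11313076, minus strand) and Col4a2 (chr8:11312555-11312854, plus strand) start 21 bases apart, so their windows share 78 bases, which are in capitals.
Col4a1: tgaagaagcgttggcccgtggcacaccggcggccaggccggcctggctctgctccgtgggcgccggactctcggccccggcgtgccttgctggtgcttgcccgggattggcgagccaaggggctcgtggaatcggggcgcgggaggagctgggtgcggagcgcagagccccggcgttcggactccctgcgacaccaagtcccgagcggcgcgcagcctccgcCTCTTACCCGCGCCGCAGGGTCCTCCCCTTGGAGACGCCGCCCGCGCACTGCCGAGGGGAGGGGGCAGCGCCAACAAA
Col4a2: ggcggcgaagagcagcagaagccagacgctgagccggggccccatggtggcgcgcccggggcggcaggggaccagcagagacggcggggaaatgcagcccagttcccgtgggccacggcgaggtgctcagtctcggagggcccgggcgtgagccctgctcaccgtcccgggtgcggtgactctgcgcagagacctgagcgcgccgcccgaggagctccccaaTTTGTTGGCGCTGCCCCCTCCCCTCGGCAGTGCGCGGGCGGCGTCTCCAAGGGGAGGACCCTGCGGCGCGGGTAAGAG
Col4a5 (chrX:141475169-141475468, plus strand) and Col4a6 (chrX:141474027-141474326, minus strand) start 1343 bases apart and share 0 bases of their windows. Here capitals mark the letters CCAAT, a promoter box, and GGGCGG, a GC box, on either strand.
Col4a5: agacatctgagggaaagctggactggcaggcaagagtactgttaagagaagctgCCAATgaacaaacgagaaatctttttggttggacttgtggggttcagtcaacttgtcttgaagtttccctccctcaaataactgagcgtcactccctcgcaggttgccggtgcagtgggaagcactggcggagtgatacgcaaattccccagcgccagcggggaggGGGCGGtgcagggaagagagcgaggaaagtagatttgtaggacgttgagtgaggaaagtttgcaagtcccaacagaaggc
Col4a6: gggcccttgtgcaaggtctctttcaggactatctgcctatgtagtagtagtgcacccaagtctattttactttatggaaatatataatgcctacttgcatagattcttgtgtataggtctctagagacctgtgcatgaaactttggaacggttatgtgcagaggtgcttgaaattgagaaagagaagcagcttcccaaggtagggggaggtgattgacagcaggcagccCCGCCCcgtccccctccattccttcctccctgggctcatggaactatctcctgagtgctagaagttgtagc
The windows of Col4a1 and Col4a2 were 74.0% and 73.7% G or C, against 52.7% for Col4a5, 48.3% for Col4a6 and a median of 52.7% over 32851 windows. CCAAT was found 1 time each in Col4a1, Col4a2 and Col4a5 and 0 times in Col4a6, and 37.4% of all windows hold it. GGGCGG was found 3 times in Col4a2 and 1 time in each of the others, and 35.7% of all windows hold it. Both strands were searched, and matches of the 2 motifs may overlap.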

How the data were processed

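Each mouse had 1 scanner output. Scans were quantified with Agilent Feature Extraction 10.7.3.1, per the submitters' processing notes, and the deposited mean signal and background columns are intensity values on a linear scale, not normalized between arrays. The log10 ratio of Cy5 over Cy3 in the same files was background-subtracted and dye-normalized by the authors' software, per the file headers. The authors' deposited table of log2 values (column median 9.11) followed the Cy5 signal (r of 0.995 to 0.999 across probes of an array), and how its columns were brought to that median is not stated in the labels.

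Ratios came from limma 3.58.1 (R 4.3.3), using normexp (offset 50), loess within arrays, control spots at weight 0 and flagged spots missing (260 to 355 per array). Probes detected on at least 50% of arrays of either diet were kept (52.5%), and the brightest probe stood for a gene, named as in the scanner files. Symbols of 62 member probes with a RefSeq accession matched RefSeq. HF-Q and HF were compared with lmFit and eBayes over 23 arrays without covariates, two-sided, and the scores were fitted alike. Permutation tests used 100000 resamples, two-sided. The script was tested on simulated data. Genes named in full were Col1a1, Col1a2, Col3a1, Col4a1, Col4a2 and Col6a1 to Col6a3, plus those per class with the smallest unadjusted p for diet and the highest and lowest r with muscle; pathway genes named for diet were the 3 with the smallest unadjusted p, and others named were chosen after their values were seen. Members and lists were chosen with earlier results of these data known. Alternatives covered background correction, normalization, channel, table, dim-probe filter, probe choice, slide, array weights, covariates and subsets of mice.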

Additional observations from a re-analysis of the deposited data

How the results depend on the processing

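The diet comparison called 0 genes in every alternative run, with the smallest adjusted p in limma of any setting at 0.231, and the median collagen difference ran from -0.34 to -0.037 except with both scores as covariates. In that fit 7 named genes turned to above 0, by 0.094 for Col3a1, 0.090 for Col4a1, 0.034 for Col4a2, 0.032 for Col6a1, 0.035 for Col6a2, 0.047 for Col6a3 and 0.10 for Col18a1, and within slide 3 Col4a2 was at 0.016 and Col7a1 at 0.17. Over the 11 mouse numbers that the diets share, deviations of same-numbered mice correlated at -0.35 to 0.39 and 5 of these exceeded 0.1, so the numbers were not taken to pair the mice. With them as a replicate block 0 genes were called and the median was -0.20. There 9 collagens were lower at an unadjusted p under 0.05, where 2.52% of all genes were lower. In the correlations of deviations, 2 mice correlated best with their own number. Calls on the smooth muscle score fell in smaller sets of mice, from 5058 genes to 180, 86 and 103 within slides 1, 2 and 3, 236 within HF, 1812 within HF-Q, 79 for mice numbered 5 and up and 77 for mice numbered 1 to 4, the last 2 splits being chosen after seeing the data. In these smaller sets fewer arrays entered the fit. The fibrillar, basement membrane and other genes called were 1, 1 and 1 on slide 1, then 1, 0 and 1 on slide 2, and 0 in each class on slide 3 and within HF. They were 1, 0 and 0 for numbers 5 and up and 0, 0 and 1 for numbers 1 to 4. Basement membrane calls were 3 within HF-Q and 3 with median centring. Slopes not called over all mice turned sign for Col4a4 (0.057, Cy5 alone), Col6a6 (0.0035 on slide 1, 0.14 for numbers 5 and up, 0.0064 for numbers 1 to 4), Col9a1 (0.018 on slide 1, 0.098 within HF, 0.077 for numbers 5 and up) and Col5a3 (-0.031 for numbers 5 and up). The called Col4a6 slope of -0.17 turned sign as well (0.023 for numbers 1 to 4). The cause of these turns was not tested. Calls on the fibroblast score were 4820 genes, 3165 without the 2 farthest mice and 145 for numbers 5 and up, where 3 fibrillar and 3 basement membrane genes were called. With both scores, 187 genes were called on the fibroblast score, 112 with median centring and 2 for numbers 5 and up, where 0 collagens were, and 47 on the muscle score, 106 when the fibroblast score left out matrix genes. Among single genes, and class medians for diet, 261 values for diet and 236 for the muscle score counted as unchanged. A single gene counted so when it kept its direction and its side of the threshold. A class median counted so when it shifted by less than the median SD of the collagens (0.28), whatever its sign. With both scores as covariates the basement membrane and other medians turned to 0.034 and 0.032 and still counted as unchanged. For the muscle score 64 values kept the direction and lost the call, and 2 gained one. Ratios of genes near background, such as Col4a3, Col9a1 and Col19a1, are limited by signal over background.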
